A study of Mus musculus with 6 samples.

Results

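The 37 nuclear genes named as subunits of complex I were examined in intestinal tissue of mice that had been given cold or room-temperature water. Their symbols begin with Ndufa, Ndufb, Ndufc, Ndufs or Ndufv followed by a digit, and each has at least 1 transcript annotated as protein-coding. They are 37 of 55267 gene symbols in the table, with 179 transcripts. Ndufa4, now known as a subunit of cytochrome c oxidase, and its paralog Ndufa4l2 are counted among the 37 by name. The pattern matched 43 symbols. Left out were 5 that had no protein-coding transcript (Ndufa11b, Ndufa12-ps, Ndufb4c, Ndufs5-ps and Ndufs6b) and Ndufb1-ps, which the table describes as subunit B1 although its symbol marks a pseudogene. Ndufab1, the acyl carrier protein of the complex, is not matched by the pattern and is described with a separate list.

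Complex I oxidises NADH in the mitochondrial matrix, passes the electrons along iron-sulfur clusters to ubiquinone, and pumps protons across the inner membrane. Its hydrophilic matrix arm holds the redox centres and its membrane arm the proton pumps, whose core proteins are encoded by mitochondrial DNA. Around this core lie accessory subunits that hold the complex together, and all nuclear-encoded subunits are imported into mitochondria and joined by assembly factors. Absorptive cells of the small intestine are rich in mitochondria, which power nutrient transport.

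Both groups received 1 ml of water by gavage into the stomach each day for 14 days and were housed at 22 °C. Water of 0 to 4 °C went to the cold water group at 8 am, and water of 20 to 25 °C to the control group at 9 am, so the water temperature and the hour of gavage cannot be told apart. Each group had 3 RNA-seq libraries, and nothing in the labels says that each came from a separate animal, so p-values measure the spread between libraries.

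The sample labels name proximal jejunum while the design text names colon. All 12 markers of small intestinal enterocytes were above the filter, with a summed level of 45935 to 101606 CPM (the estimated count relative to the scaled library total). Of 8 colonocyte markers 3 were above it, with a sum of 88.1 to 126 CPM, and Scnn1g and Prdx6b were listed at 0 in all 6 libraries. Library totals were 72690433 to 78668871 estimated counts. B and plasma cell markers summed to 939 CPM in cold water 1 and to 166 to 348 CPM in the other libraries. Macrophage and T cell markers likewise summed to 243 CPM in cold water 1 and to 60.1 to 77.6 CPM elsewhere. Smooth muscle markers summed to 2222, 4194 and 1104 CPM in cold water 1, 2 and 3 and to 1896, 4710 and 545 CPM in control 1, 2 and 3. In bulk tissue, fewer cells of a type and less RNA per cell cannot be told apart.

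Complex I subunit genes were strongly expressed in this tissue. Their median over the 6 libraries was 115 FPKM (fragments relative to transcript length and library size, a level per length), against 7.16 FPKM for all tested genes, and 94.7% of tested genes lay below 115 FPKM. A mean of at least 50 FPKM was reached by 34 of the 37. The highest was Ndufa4 at 317 ± 40.7 FPKM (SD, n = 6), a protein first assigned to complex I and now known as a subunit of cytochrome c oxidase. Ndufb7 followed at 277 ± 49.1 FPKM and Ndufa3, a small membrane subunit, at 246 ± 40.3 FPKM. These ranges overlapped, so the order of the highest genes is within their spread.

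The 3 lowest genes lay far apart from one another on the same scale. Ndufc1, a small subunit of the membrane arm, had 26.5 ± 3.30 FPKM and Ndufb2, of the distal membrane arm, 16.5 ± 2.03 FPKM. Ndufa4l2, the paralog of Ndufa4 known to be induced by hypoxia, had 1.05 ± 0.674 FPKM and ranged from 0.491 to 2.23 FPKM, just at the filter of 1 FPKM. The levels of these 3 did not overlap. All other subunit genes had mean levels above 50 FPKM.

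**Figure D1:**
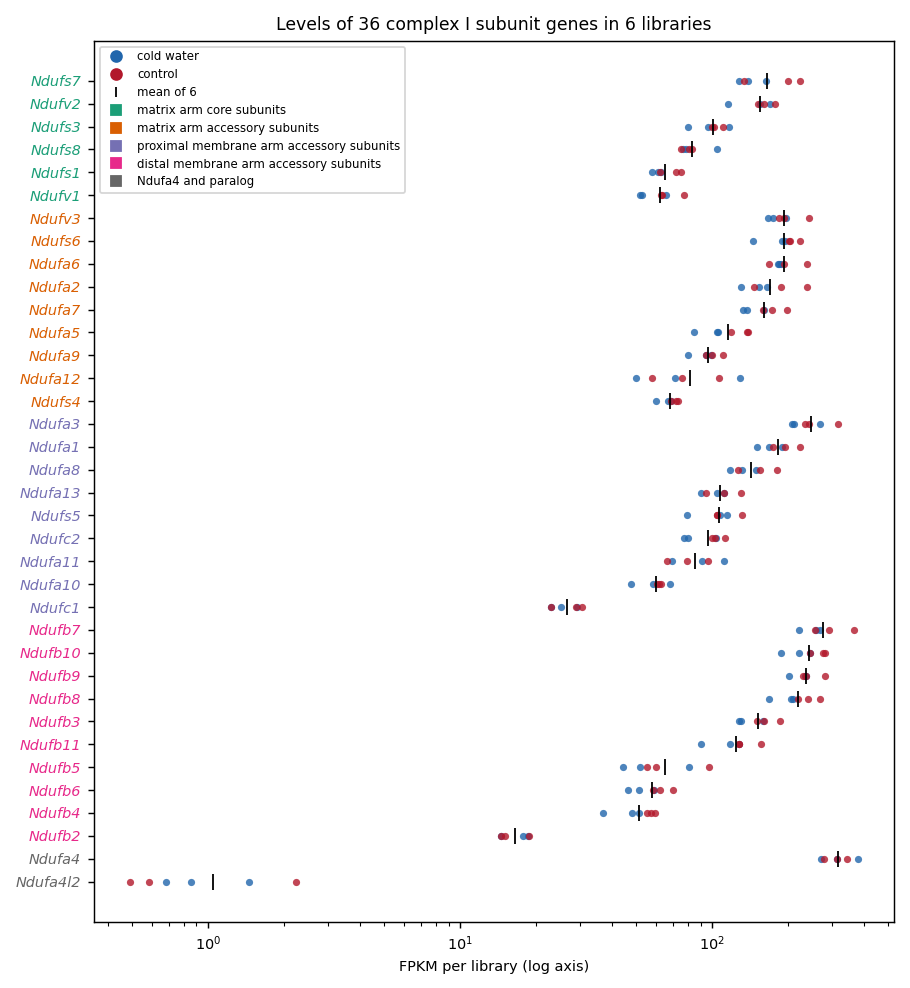
FPKM (log axis) of 36 complex I subunit genes in each of 6 libraries, with points for cold water (blue) and control (red), a tick for the mean of 6 and name colours for the part of the complex. Nearly all genes lie between 50 and 317 FPKM on average, while Ndufc1, Ndufb2 and Ndufa4l2 lie below.

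Of the 37 genes, 32 were lower and 5 higher in the cold water group, with a median log2 difference of -0.19. Over all tested genes the median was 0.029 and 45.8% were lower. No single subunit gene passed the test, however. In the quasi-likelihood test of edgeR over all 12939 tested genes, the adjusted p of the 37 ranged from 0.878 to 0.996, and DESeq2 and limma also called 0 of them. The call rate over all genes was low as well, at 0.0386% (5 genes), or 0.0232% for genes lower in cold water (3 genes). Unadjusted p was under 0.05 for 1 subunit gene, Ndufa5, against 5.01% of all tested genes. Each difference was small, from -0.33 to 0.21 on the log2 scale. The unadjusted 95% intervals of 35 of the 37 lay within ±1 on that scale, a factor of 2, which held for 65.4% of all tested genes, and the median standard error was 0.15 against 0.24.

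**Figure D2:**
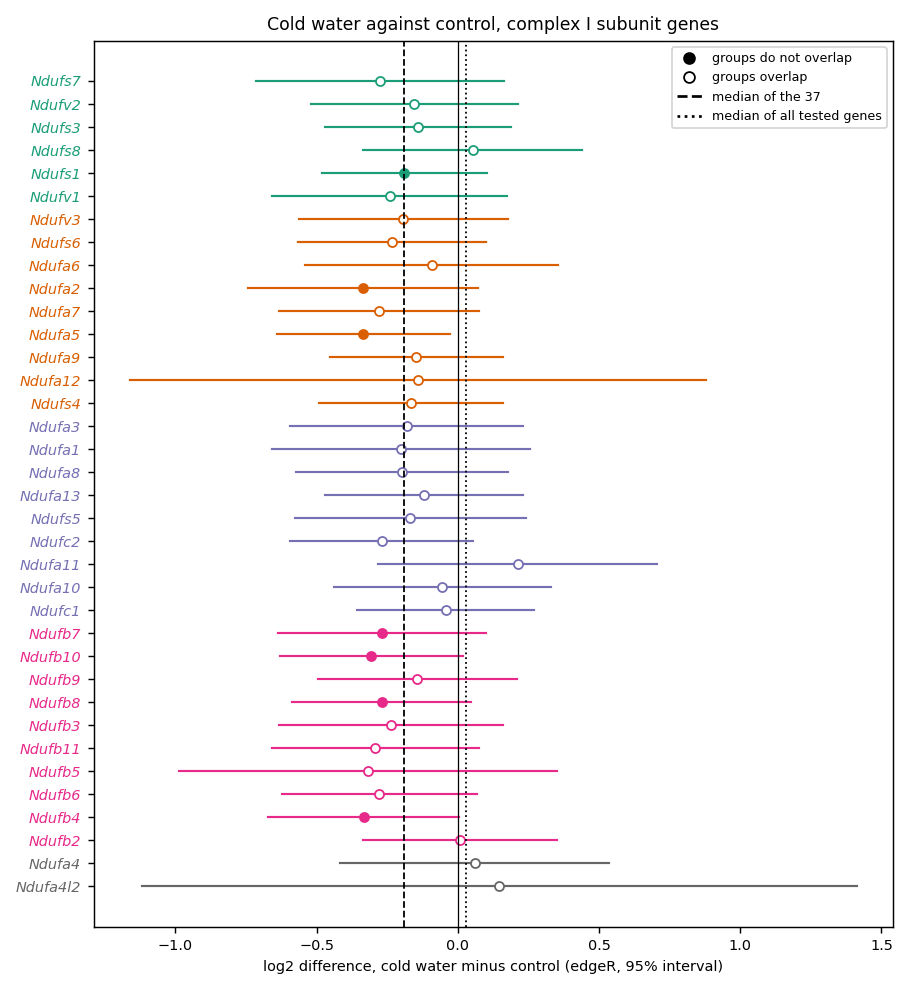
Log2 difference between cold water and control with its 95% interval from edgeR for 36 subunit genes, with name colours for the matrix core, matrix accessory, proximal membrane, distal membrane and Ndufa4 groups from top to bottom. Filled points mark the 7 genes whose groups do not overlap. Most points lie to the left of 0 around the median of -0.19, and nearly all intervals include 0.

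Summed over the 37 genes, the level was 4213, 4496 and 4154 CPM in cold water 1, 2 and 3 and 5384, 4280 and 4901 CPM in control 1, 2 and 3. Control 1 and control 3 lay above all 3 cold water libraries, and control 2 lay among them. The means were 4288 ± 183 CPM for cold water and 4855 ± 553 CPM for control (SD, n = 3), a log2 ratio of -0.18. The pattern was shared by most genes. Of the 37, 28 had their highest value in control 1 (75.7%, against 19.3% of all tested genes). In control 1, 35 lay above their own mean of 6 libraries, and in control 2, 30 lay below it. Over all tested genes the median log2 deviation from that mean was 0.0062 in control 1 and -0.0050 in control 2. In 28 of 37 genes the lowest library was a cold water library (75.7%, against 45.7% of all tested genes).

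In each of the 6 fits that left out a library most genes were still lower, but the size moved. Without control 1, 30 of 37 were lower with a median log2 difference of -0.10. Without control 2, 35 of 37 were lower with a median of -0.28. Without cold water 1, 34 of 37 were lower with a median of -0.13. Cold water 1 was the library with high immune markers, and it also had the highest sum of 8 crypt and proliferation markers, 1315 CPM against 688 to 875 CPM in the others. Control 2 had the lowest sum of enterocyte markers, 45935 CPM against 52284 to 101606 CPM in the others. It also had the highest sum of smooth muscle markers, 4710 CPM. The enterocyte sum was highest in cold water 3, where the sum of the 37 genes was lowest. The part of these markers in the result was not tested.

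Transcript length moved with the libraries too. The subunit genes are short, with a median length of 840 bases against 2271 for all tested genes. All 1364 tested genes of 500 to 1000 bases had a median log2 difference of -0.10, 64.3% of them were lower, and 36.5% had their highest value in control 1. The 23 subunit genes in this class had a median of -0.24, and 82.6% of them were lower. The 900 tested genes under 500 bases did not share the shift, with a median of 0.0093 and 49.6% lower. With a trend over length removed from all genes, an alternative chosen after the data were seen, 31 of 37 were lower with a median of -0.13. The part of length in the result was not tested further.

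**Figure D3:**
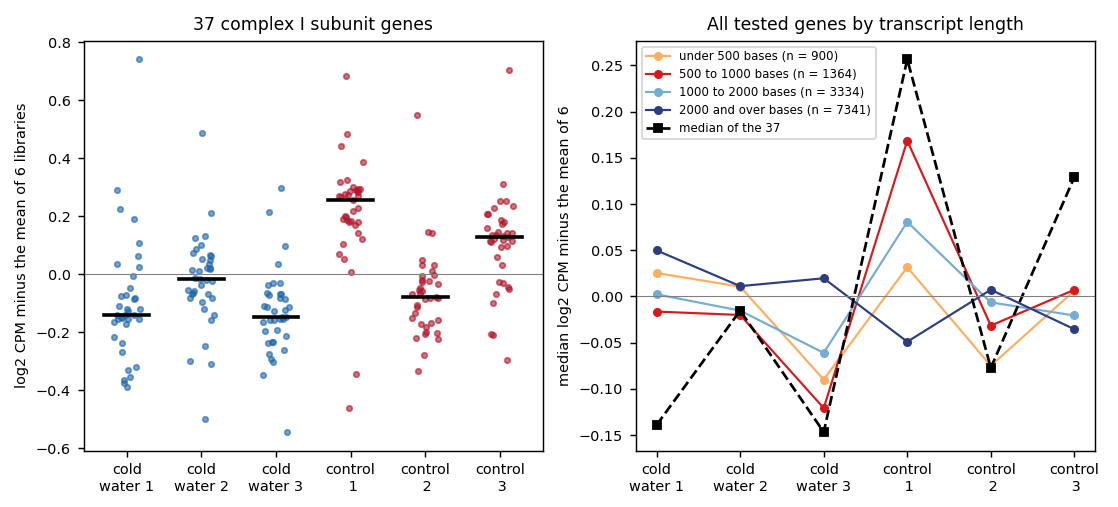
Left, log2 CPM of each of the 37 genes (points) minus its mean over the 6 libraries, with the median as a bar, for cold water (blue) and control (red). Right, the same medians for all tested genes by transcript length. The subunit genes were highest in control 1 (median 0.26) and control 3 (0.13), while control 2 (-0.077) lay within the range of the cold water libraries, and genes of 500 to 1000 bases were also highest in control 1 (0.17).

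In the matrix arm, 6 of the 7 core subunit genes were lower in the cold water group, with a median log2 difference of -0.15, and all 9 accessory genes were lower, with a median of -0.19. Summed core levels were 1231, 1284 and 1146 CPM in cold water 1, 2 and 3 and 1524, 1208 and 1359 CPM in control 1, 2 and 3, so control 2 lay among the cold water libraries.

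Ndufs1 carries several iron-sulfur clusters at the entry of the electron path. It had 143, 162 and 143 CPM in cold water 1, 2 and 3 and 173, 165 and 173 CPM in control 1, 2 and 3. All control values exceeded all cold water values, by a small margin between cold water 2 and control 2. The log2 difference was -0.19 (SE 0.12, edgeR adjusted p = 0.881).

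Ndufv1 binds NADH and its flavin cofactor. Its levels were 83.9, 115 and 99.4 CPM in cold water 1, 2 and 3 and 132, 99.9 and 121 CPM in control 1, 2 and 3. The groups overlapped, and the log2 difference of -0.24 (SE 0.18) gave an edgeR adjusted p of 0.892. Its partner Ndufv2, also an iron-sulfur protein, had 283, 267 and 224 CPM with cold water and 312, 257 and 293 CPM in control, again with overlap and a log2 difference of -0.15.

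Ndufs7 lies at the ubiquinone site and holds the last iron-sulfur cluster of the electron path. It had 145, 136 and 131 CPM with cold water and 204, 165 and 130 CPM in control, where control 3 lay just below all cold water libraries. Its log2 difference was -0.28 (SE 0.18, edgeR adjusted p = 0.884).

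Ndufs3, a structural core subunit, had 92.0, 109 and 92.5 CPM with cold water and 117, 97.7 and 110 CPM in control. The groups overlapped at a log2 difference of -0.14. Ndufs8, which holds iron-sulfur clusters near the quinone site, had 92.3, 77.1 and 78.7 CPM with cold water and 81.3, 66.4 and 91.6 CPM in control. Its log2 difference was above 0 (0.052, SE 0.16), well within its spread.

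Among the 9 accessory genes of the matrix arm, 2 had groups that did not overlap, where the share over all tested genes was 10.5%. Ndufa5 had 81.9, 85.9 and 77.8 CPM in cold water 1, 2 and 3 and 113, 93.9 and 103 CPM in control 1, 2 and 3. Every cold water value lay below every control value. Its log2 difference of -0.33 (95% interval -0.64 to -0.028) was the only one among the 37 whose unadjusted interval left out 0 (edgeR adjusted p = 0.878). These values sum all isoforms of Ndufa5, coding or not. Protein-coding isoforms held 76.3%, 70.0% and 70.9% of its FPKM with cold water and 72.9%, 56.0% and 61.7% in control. In FPKM of the protein-coding isoforms alone the groups overlapped, with cold water 1 above control 2. The separation of the groups therefore holds for the sum of all isoforms only. Ndufa2, which has a thioredoxin-like fold, had 95.8, 97.3 and 91.2 CPM with cold water and 148, 108 and 102 CPM in control. Here control 1 stood well above the rest, and the log2 difference was -0.33 (SE 0.17, edgeR adjusted p = 0.878).

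In the proximal part of the membrane arm, 8 of 9 genes were lower with a median log2 difference of -0.17. None of the 9 had groups without overlap, against 10.5% of all tested genes, and differences between the parts were not tested. Ndufa3 had 106, 144 and 125 CPM with cold water and 160, 121 and 145 CPM in control, with overlap. The exception was Ndufa11, a membrane subunit at the contact with other respiratory complexes, which is described here after its values were seen. It had 64.9, 42.9 and 65.3 CPM with cold water and 58.5, 45.3 and 45.7 CPM in control. Cold water 2 was its lowest library, so the groups overlapped, and the log2 difference of 0.21 (SE 0.21) was the highest of the 37. Ndufc1 had 36.3, 34.3 and 34.8 CPM with cold water and 40.4, 35.0 and 33.2 CPM in control, a log2 difference of -0.043.

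The distal part of the membrane arm had the lowest median log2 difference, -0.27, with 9 of 10 genes lower and 4 of them without overlap between the groups. Over all 37 genes there were 7 without overlap (18.9%), all lower in cold water, against 10.5% of all tested genes and 5.22% in the lower direction. Without control 2, 26 of 37 had groups that did not overlap, where the share over all tested genes was 24.2%. Without cold water 2 there were 20 (20.5% of all tested genes), and without control 1 there were 7 (14.2%). Without cold water 1 or cold water 3 there were 12 (21.2% and 18.7%), and without control 3 there were 13 (25.6%). Ndufb1-ps, left out by its name and given here after its values were seen, had 42.5, 38.5 and 41.6 CPM with cold water and 50.3, 45.2 and 44.5 CPM in control, also without overlap.

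Ndufb10, a cysteine-rich subunit on the intermembrane space side, had 153, 189 and 157 CPM in cold water 1, 2 and 3 and 210, 204 and 203 CPM in control 1, 2 and 3. All controls lay close together above the cold water libraries, and the log2 difference was -0.31 (SE 0.14, edgeR adjusted p = 0.878). These values sum all isoforms, and only 11.4% to 32.2% of the FPKM of Ndufb10 lay in protein-coding ones. Ndufb7, which lies on the same side of the membrane, had 178, 187 and 177 CPM with cold water and 258, 193 and 202 CPM in control. The margin was narrow for control 2 and wide for control 1, at a log2 difference of -0.27 (edgeR adjusted p = 0.878).

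Ndufb8, a membrane subunit whose protein is widely used as a marker of assembled complex I, had 152, 167 and 150 CPM with cold water and 207, 173 and 187 CPM in control. The groups were apart, with a log2 difference of -0.27 (SE 0.13, edgeR adjusted p = 0.878). Ndufb4, another membrane subunit, had 50.2, 51.2 and 43.8 CPM with cold water and 62.2, 53.4 and 67.3 CPM in control. All its control values were higher, at a log2 difference of -0.33 (95% interval -0.67 to 0.0056, edgeR adjusted p = 0.878). Ndufb2 was the only gene of the distal part with a difference above 0, and its 26.2, 26.4 and 24.3 CPM with cold water overlapped the 27.5, 22.4 and 26.6 CPM of control at a log2 difference of 0.0076.

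Ndufa4 and Ndufa4l2 were both above 0. Ndufa4 had 167, 250 and 251 CPM with cold water and 243, 192 and 206 CPM in control, with cold water 1 as its lowest library and a log2 difference of 0.061 (SE 0.20). Ndufa4l2 had 0.812, 1.51 and 0.786 CPM with cold water and 0.541, 1.60 and 0.669 CPM in control. Its values were high in cold water 2 and control 2, and its log2 difference of 0.15 had a 95% interval of -1.12 to 1.41. Smooth muscle markers were also highest in those 2 libraries. Their part in the Ndufa4l2 values was not tested.

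Ndufa12, an accessory subunit of the matrix arm, lay farthest from the median deviation of the 37 in a library, by 0.88 on the log2 scale, and is described here because of that value. It had 145, 61.0 and 59.1 CPM in cold water 1, 2 and 3 and 67.9, 83.1 and 141 CPM in control 1, 2 and 3. Cold water 1 and control 3 were more than 50 CPM above the other libraries, in both groups, and its interval of -1.16 to 0.88 was 1 of the 2 among the 37 that reached past ±1.

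The pseudogene Ndufa12-ps, on chromosome 5 (Ndufa12 is on chromosome 10), had nearly the opposite order of libraries. It is 99.5% identical over 402 bases to the main protein-coding transcript of Ndufa12. It had 22.6, 118 and 85.7 CPM with cold water and 118, 73.4 and 52.5 CPM in control, lowest where Ndufa12 was highest. The highest library was 2.45 times the lowest for Ndufa12 and 5.23 times for the pseudogene, but 1.34 times for their sum. The sums were 167, 179 and 145 CPM with cold water and 186, 157 and 194 CPM in control, with control 1 and control 3 highest and cold water 3 lowest, as in the sum of the 37. Reads of 2 such similar sequences cannot be assigned with certainty, so the value of Ndufa12 alone is uncertain.

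Near-identical copies (at least 95% identity over at least 50% of either transcript) were found for 10 of the 37 genes, and the copy had a mean of at least 1 FPKM for 5. For Ndufb4 the copy was Ndufb4c, identical over 390 bases. Its own counts ranged from 0.339 CPM in cold water 3 to 6.57 CPM in control 1, and with it added Ndufb4 had 55.6, 55.8 and 44.2 CPM with cold water and 68.8, 58.4 and 73.6 CPM in control, still without overlap. The copies of Ndufs3 (Gm12251, 98.6% identical), Ndufs5 (Ndufs5-ps) and Ndufs6 (Ndufs6b) had means of 15.9, 4.39 and 9.20 FPKM, small beside the 101, 107 and 193 FPKM of the genes themselves. In 9 of the 37, exons overlapped those of another gene with at least 1 FPKM, such as Smim27 over 39.0% of the Ndufb6 transcript and Mrpl47 over 20.0% of that of Ndufb5. The sources used here do not say if strand was kept, so reads of such pairs cannot be told apart.

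By the authors' transcript estimates, 99 of the 179 transcripts were at or above a mean of 1 FPKM. Of these, 66 were lower and 33 higher in cold water, and none passed edgeR's quasi-likelihood test over all 21041 tested transcripts (lowest adjusted p = 0.960, background call rate 0.0285%). DESeq2 called 2 of the 99 (2.02%), no larger a share than its 2.78% of all tested transcripts (585). They were the main protein-coding transcript of Ndufb8 (ENSMUST00000026222) and a non-coding transcript of Ndufa5 (ENSMUST00000141274). Groups did not overlap for 11 (11.1%), the same share as over all tested transcripts (11.1%). The Ndufb8 transcript had 169, 163 and 135 FPKM with cold water and 226, 205 and 171 FPKM in control, a log2 difference of -0.35 (SE 0.12). The Ndufa5 transcript had 22.9, 30.2 and 23.1 FPKM with cold water and 36.6, 58.9 and 44.8 FPKM in control, a log2 difference of -0.86 (SE 0.26). All controls lay above all cold water values for both transcripts.

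For several genes the estimated isoforms differed between single libraries. Which isoform led varied over the 6 libraries in 8 of the 31 genes with more than 1 isoform (25.8%), against 39.5% of the 10613 tested genes with more than 1. The protein-coding isoform of Ndufa12 (ENSMUST00000020209) had 118, 8.10 and 0.702 FPKM with cold water and 0.382, 60.3 and 88.8 FPKM in control. In the 3 libraries where it was low, a nonsense-mediated decay isoform and a retained-intron isoform held most of the estimate. The near-identical Ndufa12-ps was highest in the same 3 libraries, so the isoform split of Ndufa12 is uncertain too. In Ndufa10 a nonsense-mediated decay isoform had 31.4 FPKM in control 2 and was at 0 in the other 5.

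Leading protein-coding isoforms changed for 3 genes. In Ndufs1 the isoform that led in 5 libraries at 49.6 to 54.6 FPKM had 11.1 FPKM in cold water 3, where another (ENSMUST00000027111) had 25.2 FPKM against 0.140 to 2.71 elsewhere. Ndufs7 had 2 such isoforms, with 17.7 to 120 FPKM for ENSMUST00000020361 and 30.8 to 85.1 FPKM for ENSMUST00000105364. ENSMUST00000105364 led in cold water 1, 2 and 3 and ENSMUST00000020361 in control 1, 2 and 3. The lowest edgeR adjusted p of an Ndufs7 isoform was 0.960. In Ndufs8 a transcript with 0.872 to 8.90 FPKM in 5 libraries had 51.6 FPKM in control 3. Ndufb10 was led by retained-intron transcripts in all 6 libraries and only 11.4% to 32.2% of its FPKM lay in protein-coding isoforms. Ndufv3, a flavoprotein-linked subunit with a short and a long protein form, had 157 to 231 FPKM for its 493-base transcript and 8.51 to 13.6 FPKM for the 1582-base one, in each library. Ndufv3, Ndufa10 and Ndufb10 isoforms are given after their values were seen.

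**Figure D4:**
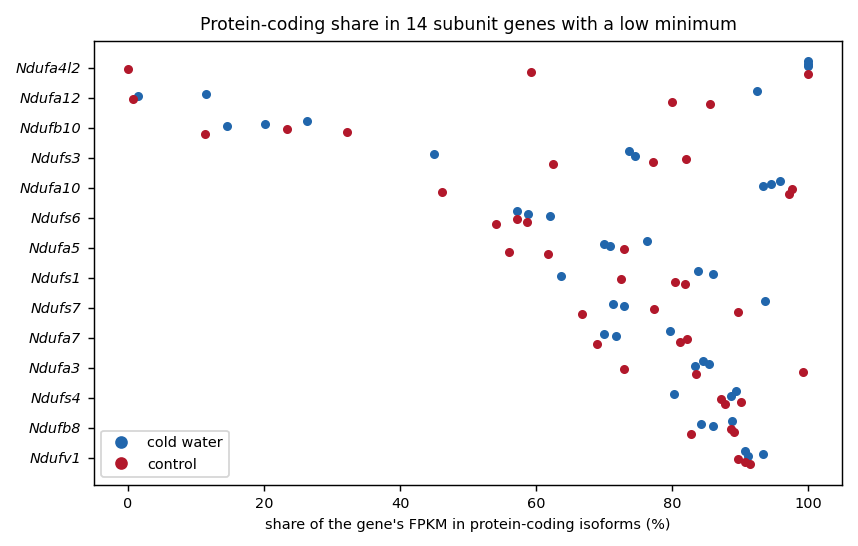
Percent of each gene's FPKM in protein-coding isoforms, per library (cold water blue, control red), for 14 subunit genes with a low minimum. The points of Ndufa12 spread from 0.815% to 92.4% with both groups at both ends. Ndufa12-ps was highest in the libraries where this share was lowest, and the split is uncertain.

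Other genes of the complex were set beside the 37. All 7 subunits encoded by mitochondrial DNA had differences below 0, with a median of -0.22 on the log2 scale and edgeR adjusted p of 0.878 to 0.966. Their sums were 22892, 28465 and 26568 CPM with cold water and 22960, 28212 and 39761 CPM in control. Control 3 was the highest library, whereas the nuclear genes were highest in control 1, and control 1 lay just above the lowest. mt-Nd3 had the largest difference (-0.33), with 586, 704 and 722 CPM with cold water and 765, 727 and 1030 CPM in control. Its groups did not overlap, by a narrow margin between cold water 3 and control 2. mt-Nd2 followed at -0.27.

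Of 21 assembly factors 19 were tested, and 10 were lower and 9 higher, with a median log2 difference of -0.0057 and 0 called by edgeR. The smallest p values were those of Dmac1, an assembly factor of the distal membrane arm (-0.37, edgeR adjusted p = 0.878), and Tmem126a (0.41, edgeR adjusted p = 0.878). Groups did not overlap for 4 of the 19, against 10.5% of all tested genes, with Dmac1 (lower) and Tmem126a (higher) among the 4. Tmem126a is a membrane assembly protein. Of the acyl carrier protein and iron-sulfur list, 8 of 11 were lower with a median of -0.21. Ndufab1 had 70.3, 71.2 and 65.2 CPM with cold water and 95.4, 79.3 and 81.3 CPM in control. Its groups did not overlap, at a log2 difference of -0.31 (edgeR adjusted p = 0.878). Iscu, the scaffold on which iron-sulfur clusters are built, had -0.21, also without overlap.

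Of 14 regulators of mitochondrial gene expression, 5 were lower and 9 higher (64.3%, against 54.2% of all tested genes), with a median of 0.10. Their summed level was 569 ± 95.2 CPM with cold water and 588 ± 101 CPM in control (SD, n = 3). Much of this sum was Esrra, named here after its values were seen, with 246 ± 112 and 278 ± 111 CPM. Nrf1, a known activator of nuclear genes for the respiratory chain, had 13.9, 13.9 and 13.5 CPM with cold water and 10.1, 11.2 and 10.9 CPM in control. Gabpa, the DNA-binding subunit of GABP, another such activator, had 35.2, 31.3 and 37.8 CPM with cold water and 26.0, 30.3 and 27.2 CPM in control. For both, every cold water value exceeded every control value, with log2 differences of 0.36 and 0.32 and an edgeR adjusted p of 0.878 each. Ppargc1a, a coactivator known to drive mitochondrial gene expression and named here after its values were seen, had 35.0, 41.0 and 31.4 CPM with cold water and 45.7, 39.6 and 58.0 CPM in control. Its groups overlapped, and its log2 difference was -0.42 (SE 0.19, edgeR adjusted p = 0.878). No gene of these 4 lists passed the test.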

How the data were processed

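RNA-seq of intestinal tissue was measured in 3 cold water and 3 control libraries, grouped by their labels. The submitters' processing notes name StringTie 1.3.4d, HISAT2 2.0.4, DESeq2, edgeR, FastQC 0.10.1 and cutadapt 1.9. The sources used here do not give their roles, the build or the strand setting. Per the file headers, the authors deposited FPKM and an estimated count for each of 142604 transcripts and each library. The deposited estimated counts are whole numbers, and at least 99.998% of those checked in each library follow from FPKM and transcript length within 0.02. About 3.76 counts stood for 1 fragment, so the totals equal 19332560 to 20922571 fragments, and counting errors from counts would be too small. Transcript positions matched GRCm38 in GENCODE M21 for all 179 subunit transcripts.

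Counts were summed by gene symbol, and features averaging 1 FPKM or more were kept. Groups were compared by edgeR 4.0.16 (R 4.3.3, quasi-likelihood, TMM factors of 0.895 to 1.11, Benjamini-Hochberg at 0.05 over all tested features). FPKM was used for levels. Alternatives were limma 3.58.1, DESeq2 1.42.0, other scaling and filters, leaving out each library, a replicate block, protein-coding transcripts alone and a length trend. Named genes were the core matrix-arm subunits, those with p under 0.05 or without overlap, the 3 highest and lowest in FPKM, Ndufa4 and Ndufa4l2, those with a changing protein-coding isoform, and the 2 smallest p values of each other list, marker lists excepted. The values of 1 gene are not reported here, and counts, medians and sums include it. The members and lists were chosen with earlier results of these data known.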

Additional observations from a re-analysis of the deposited data

How the results depend on the processing

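No complex I subunit gene was called under any alternative tried. The median log2 difference of the 37 was -0.28 to -0.10 on leaving out 1 library and -0.22 to -0.13 otherwise. The genes called over the whole table, 5, became 3 with library totals alone, with limma at either pseudocount and without the filter, 71 with DESeq2, 2 with protein-coding transcripts only and 0 to 1 without a library. DESeq2 called 2 subunit transcripts (2.02% of those tested, against 2.78% of all). Subunit genes higher in cold water numbered 2 to 7 without a library, and those without overlap 7 to 26. In those fits 14.2% to 25.6% of all tested genes were without overlap. Groups share replicate numbers. The correlations of same-numbered libraries were -0.0061, 0.24 and 0.44, and those of differently numbered ones -0.42 to 0.19. Whether the numbers pair the libraries was not settled. With a replicate block 0 genes were called and the median was -0.19. The sign of the difference turned in single leave-one-out settings for Ndufa10 (-0.17 to 0.043), Ndufa12 (-0.70 to 0.20), Ndufa4 (-0.066 to 0.23), Ndufa4l2 (-0.25 to 0.78), Ndufa6 (-0.26 to 0.040), Ndufb2 (-0.077 to 0.064), Ndufb5 (-0.53 to 0.0062), Ndufc1 (-0.12 to 0.042) and Ndufs8 (-0.064 to 0.15). With protein-coding transcripts only, Ndufa10 went to 0.11 and Ndufb2 to -0.012. Ndufb2 was also at -0.0037 with relative log expression factors, -0.0036 with library totals, -0.0035 with DESeq2 and -0.0054 without the filter, and Ndufc1 at 0.012 with the length trend removed. The cause of these turns was not tested. Ndufa4l2, at about 1 FPKM, had no value with the filter at 5 FPKM or with protein-coding transcripts only, and 3 libraries a group limit every interval.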
